A study of Homo sapiens with 2 samples.

Results

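The genes described here are 6 core genes of DNA mismatch repair measured in A172 cells, a long-established line from a human glioblastoma. They are the MutS homologs MSH6 and MSH3, the MutL homologs PMS2, PMS1 and MLH3, and the exonuclease gene EXO1. They were chosen by name from the 15603 genes of the deposited expression table, by a rule that uses no expression value, though with earlier results of these data known. RNA was sequenced from 2 cultures with a stranded mRNA library kit, per the labels. One was the parental A172 line, labelled as kept without temozolomide (TMZ), the alkylating drug used against glioblastoma. The other was a TMZ-resistant clone of it, labelled A172-r#6 and as kept with the drug. With 1 library per group, the effects of cloning, of selection and of the drug in the medium cannot be told apart, and no difference below has a replicate check or a p-value of its own.

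Mismatch repair removes bases that were wrongly paired during replication. A MutS heterodimer finds the mismatch, a MutL heterodimer is recruited and nicks the newly made strand, EXO1 digests that strand past the error, and the replication machinery fills the gap. MSH6 is the subunit of the heterodimer that reads single-base mismatches and small loops, and MSH3 the subunit of the one that reads larger loops. In glioma the pathway is known for its link to TMZ: the drug methylates guanine, the methylated base pairs with thymine, and repeated repair at such pairs leads to cell death, so cells without mismatch repair tolerate the drug.

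Values are FPKM (fragment counts divided by transcript length and by library size), which can be set side by side between genes because they are per length. Sequence shared with other genes limits this for some members, as given below. The scaling and the depth behind the values are unknown. The fold used below is log2 of (resistant FPKM + 1) over (parental FPKM + 1), and a call of higher or lower was made when a gene differed at least 2-fold on that scale. Genes with 1 FPKM or more in either library were tested, 13937 in all, and all 6 members were among them. Added over all genes, FPKM came to 299594 in the parental line and 323932 in the resistant clone. Of the 10 markers of glioma cells and glia 7 had a row. VIM, CD44 and EGFR had at least 36.8 FPKM in both libraries, while GFAP, S100B and AQP4, the defining markers of astrocytes, were not analysed here for want of a row. NES and SOX2, markers of neural stem cells, had 33.7 and 2.23 FPKM in the parental line and 5.08 and 0.253 in the resistant clone. OLIG2 (1.43 and 3.42 FPKM) and PDGFRA (0.607 and 0.118) were low in both. Of the 4 leukocyte markers, 2 had a row, and these summed to 2.52 and 0.919 FPKM. Of the 3 endothelial markers 2 had one (1.504 and 0.164 FPKM in sum), as did 2 of the 3 epithelial markers (1.36 and 0.905). The 4 fibroblast and pericyte markers summed to 116 and 45.6 FPKM. Their part in the results below was not tested.

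Start regions of the members are shown first because PMS1 and PMS2 share theirs with a neighbour that starts head to head, and because EXO1 is read in dividing cells. The windows ran from 250 bases before to 50 bases after each RefSeq start site (GRCh38.p14), and the first listed window of each gene was used. Each line below gives 30 bases on the strand of the gene, with the matched letters in capitals, for motifs of 8 letters bound by E2F factors at S-phase genes and for the cyclic AMP response element bound by ATF and CREB factors.
EXO1, E2F: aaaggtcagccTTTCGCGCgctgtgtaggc
MSH6, E2F: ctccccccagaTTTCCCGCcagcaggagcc
PMS2, E2F: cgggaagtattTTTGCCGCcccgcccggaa
EXO1, cyclic AMP response element: gggatacgcgtTGACGTCAcatcctctggg
PMS2, cyclic AMP response element: cccaggctcttTGACGTCAcgaagtcgacc
The EXO1 stretches are chr1:241848197-241848226 and chr1:241848139-241848168 on the plus strand. That of MSH6, also on the plus strand, is chr2:47783137-47783166. Those of PMS2 are chr7:6009131-6009160 and chr7:6009192-6009221 on the minus strand.

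One of the E2F words TTTCGCGC, TTTGGCGC, TTTCCCGC or TTTGCCGC, searched on both strands, was present in 4 of the 6 windows, those of EXO1, MSH3, MSH6 and PMS2. It was present in 3.33% of the first windows of 27305 genes. These genes, the background of each share below, were not limited to the tested genes or matched to the members in base content. The PMS2 match overlaps a GC box. The word TGACGTCA was present in 2 of 6 windows and in 1.98% of all. The GC box GGGCGG was present in 5 of 6 windows (44.6% of all) and CCAAT in 3 of 6, MSH6, PMS1 and PMS2 (35.7% of all). The MLH3 window held none of these words. A match describes the sequence only; binding was not measured. EXO1 and PMS2, the members with the lowest and the highest fold, both held an E2F word and TGACGTCA in the first window. The second listed window of PMS2 held both too, and that of EXO1 held neither. The later listed windows of MSH6 held no E2F word.

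None of the 6 genes was called higher or lower between the parental line and the resistant clone. Over all tested genes, 8.41% were called, 4.59% higher and 3.82% lower. The members' log2 folds ran from -0.66 for EXO1 to 0.48 for PMS2, with a median of 0.14 beside 0.04 over all tested genes, and 4 of the 6 were above 0, or 3 of 6 under each of the 3 other scalings tried. Of all tested genes, 53.3% were above 0, and 45.5% and 47.7% with scaling to the same sum and the same upper quartile, so the members' count is near the background. EXO1 was the member with the largest fold in size. In the order of levels PMS2 was first and MSH6 second in both libraries, PMS1 followed and MLH3 was last in both, while EXO1 was above MSH3 in the parental library and below it in the resistant one. With 1 library a group the spread of these levels is unknown, so it cannot be said which neighbours in the order differ.

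**Figure D1:**
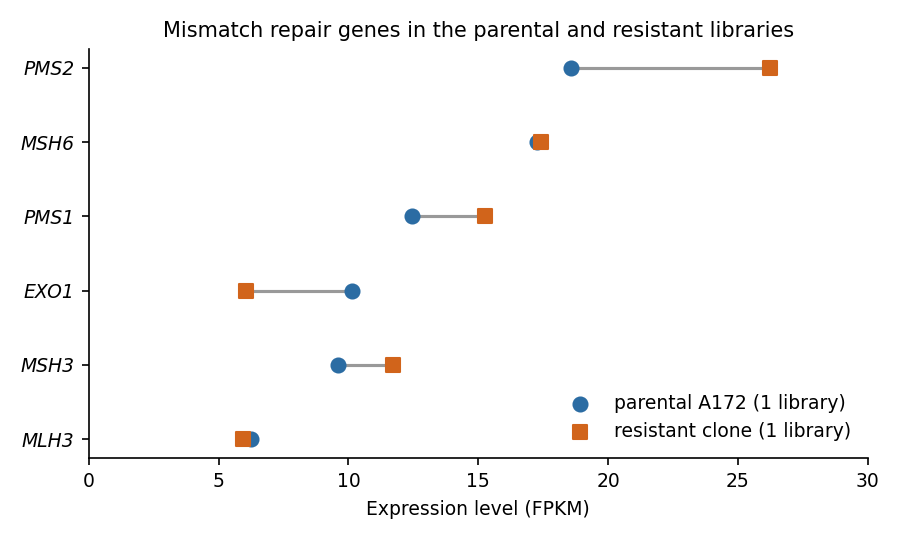
Levels of the 6 mismatch repair genes in FPKM (x axis) in the parental library (circles) and the resistant library (squares), 1 library each, joined by a line per gene. PMS2 went from 18.6 to 26.2 FPKM and EXO1 from 10.1 to 6.05, while the points of MSH6 and MLH3 nearly coincide.

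The MutS homologs came first in the pathway. MSH6 (ENSG00000116062, chromosome 2, 47695530 to 47810101, GRCh38, plus strand) had 17.2 FPKM in the parental line and 17.4 in the resistant clone, a log2 fold of 0.01. These were near-equal values, and 97.98% of tested genes had a fold at least as large in size. With both libraries scaled to the same FPKM sum its fold was -0.09, and it was below 0 also with upper quartile scaling and with median centring, so its sign depends on the scaling. MSH3 (ENSG00000113318, chromosome 5, 80654648 to 80876460, plus strand) had 9.59 and 11.7 FPKM, a log2 fold of 0.26, with the resistant library the higher. Of all tested genes, 60.3% had a fold at least that large in size. The ratio of MSH6 to MSH3 was 1.80 in the parental line and 1.49 in the resistant clone. As a share of the summed FPKM of both genes, MSH3 made up 35.7% and 40.2%. MSH5, a MutS homolog that acts in meiosis and not in mismatch repair, had 7.31 and 7.08 FPKM. The readthrough gene MSH5-SAPCD1 shares exons with it, which makes these values uncertain.

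MSH6 shares transcribed sequence with a gene on the opposite strand, and whether strand was used in the authors' counting is not given in the sources used here. It ends inside FBXO11, a subunit of a ubiquitin ligase, and 23.9% of the exonic bases of the principal MSH6 transcript (10 exons) overlap FBXO11 exons. FBXO11 had 27.8 and 27.3 FPKM, a log2 fold of -0.03, as little apart as the MSH6 values. The locus that the table gives for MSH6 runs on over FBXO11, to 47907810, and that of MSH3 begins before the GENCODE gene, at 80626228.

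Of the MutL homologs, PMS2 carries the nicking activity of the main MutL heterodimer. PMS2 (ENSG00000122512, chromosome 7, 5973239 to 6009125, minus strand) had 18.6 FPKM in the parental line and 26.2 in the resistant clone, a log2 fold of 0.48. It was the most abundant member in both, and 80.9% of tested genes had a lower fold. PMS1 (ENSG00000064933, chromosome 2, 189784085 to 189877629, plus strand), whose part in repair is not established, had 12.4 and 15.3 FPKM, a log2 fold of 0.28. MLH3 (ENSG00000119684, chromosome 14, 75013764 to 75051532, minus strand), known mostly from meiotic crossing over, had 6.25 and 5.95 FPKM, a log2 fold of -0.06. The resistant library was thus the higher for PMS2 and PMS1, and the values of MLH3 were close to each other.

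PMS2, PMS1 and MLH3 take the same position in alternative MutL heterodimers, so their proportions are given too. Their summed level was 37.2 FPKM in the parental line and 47.4 in the resistant clone. PMS2 made up 49.8% of the sum in the parental line and 55.3% in the resistant clone. PMS1 made up 33.4% and 32.2%, and MLH3 16.8% and 12.5%. The ratio of PMS2 to MLH3 was 2.97 and 4.41, and that of PMS2 to PMS1 was 1.49 and 1.72. These proportions are of RNA, and protein was not measured. They rest on the PMS2 value, which is uncertain for the shared sequence described below.

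PMS1 and PMS2 each start head to head with another gene. ORMDL1, a regulator of sphingolipid synthesis, starts 286 bases inside the bounds of PMS1, so the 2 genes overlap at their starts. Over all transcripts they share 103 exonic bases, and with the principal PMS1 transcript 0. ORMDL1 had 60.7 and 59.6 FPKM, a log2 fold of -0.03. The locus that the table gives for PMS1 takes in ORMDL1, from 189770323. AIMP2, a scaffold of the aminoacyl-tRNA synthetase complex, starts 120 bases from PMS2 and had 37.6 and 38.4 FPKM, a log2 fold of 0.03. In both pairs the partner's values were near-equal while the MutL gene was higher in the resistant library. For MLH3 and EXO1 no listed gene shared exons or a start within 1000 bases.

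The PMS2 value is uncertain because the gene has many near-identical pseudogene copies on chromosome 7. In GENCODE release 29, 34.1% of the 50-base words of the principal PMS2 transcript (15 exons, 2855 bases) occur in transcripts of 18 other genes on the same strand. PMS2CL, a copy of the end of the gene, alone shares 28.8% of them. For MSH6, MLH3, PMS1 and EXO1 this share was 0%, and for MSH3 it was 1.34%. On the opposite strand the share was 21.6% for MSH6, 7.15% for MSH3 and 0% for the other members. Of the 10 rows named as PMS2 pseudogenes, 9 passed the filter on low values and none was called. Over the 10 rows 5 folds were above and 5 below 0 (median log2 fold -0.05). Of all tested genes 53.3% were above 0 and 8.41% were called.

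PMS2CL had 4.75 FPKM in the parental line and 5.76 in the resistant clone, a log2 fold of 0.23. The most abundant copy, PMS2P6 (ENSG00000174384), had 13.7 and 10.02 FPKM, and PMS2P4 had 6.92 and 4.50. Both of these, the highest copies in the parental library, were thus lower in the resistant one, unlike PMS2 itself. Among the rest, PMS2P3 had 5.99 and 6.72 FPKM and PMS2P1 1.09 and 2.33. Of the words of the principal PMS2 transcript counted above, PMS2P6 shared only 0.784% and PMS2P4 0.143%. The measured copies that shared most, PMS2CL (28.8%), PMS2P1 (3.96%) and PMS2P7 (2.78%), were higher in the resistant library, as PMS2 was. PMS2P7 had 1.41 and 1.97 FPKM (log2 fold 0.30). PMS2P5 (2.57%) was lower, with a log2 fold of -0.61. PMS2 and its copies together summed to 61.6 and 63.9 FPKM. As FPKM is per length, this sum is not a count of reads shared among them. How the authors assigned reads that fit several copies is not given in the sources used here, and its part in the PMS2 fold was not tested.

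**Figure D2:**
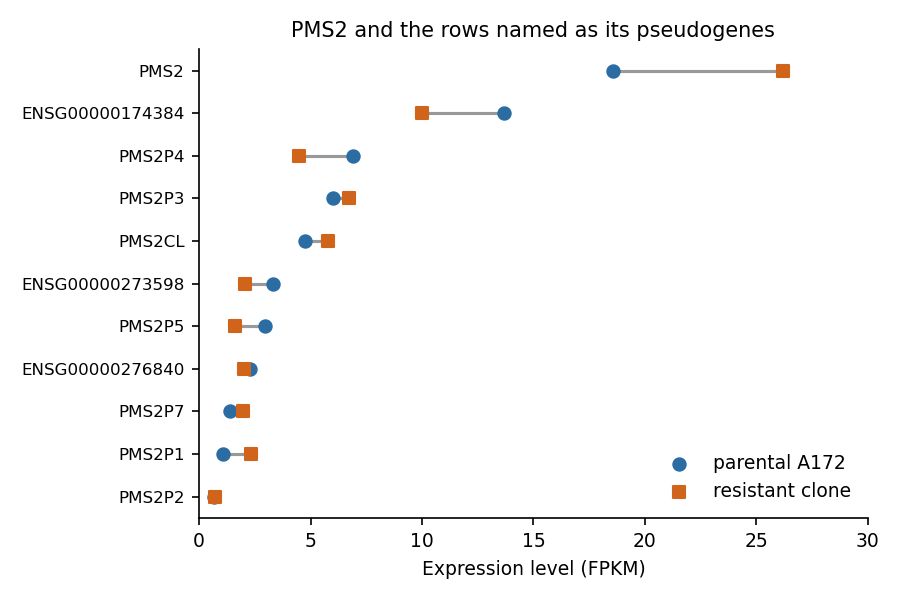
Levels in FPKM (x axis) of PMS2 and of the 10 rows named as its pseudogenes, in the parental library (circles) and the resistant library (squares), 1 library each. Rows whose name is not unique or differs from the supplied gene names are shown by identifier. PMS2 is higher in the resistant library, and the most abundant copy, ENSG00000174384, is lower, at 13.7 and 10.02 FPKM. That copy shares 0.784% of the words counted for the principal PMS2 transcript.

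EXO1 degrades the nicked strand from its 5′ end and also resects DNA ends in recombination. EXO1 (ENSG00000174371, chromosome 1, 241847967 to 241895148, plus strand) had 10.1 FPKM in the parental line and 6.05 in the resistant clone, a log2 fold of -0.66 and a plain ratio of parental over resistant of 1.68. The parental library was the higher, by less than the 2-fold threshold. Of all tested genes, 9.59% had a lower fold and 21.4% a fold at least as large in size. At a threshold of 1.5-fold EXO1 was the only member called, where 26.5% of all tested genes were called and 12.0% were called lower. The ratio of MSH6 to EXO1 was 1.70 in the parental line and 2.88 in the resistant clone, and that of PMS2 to EXO1 was 1.83 and 4.33.

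**Figure D3:**
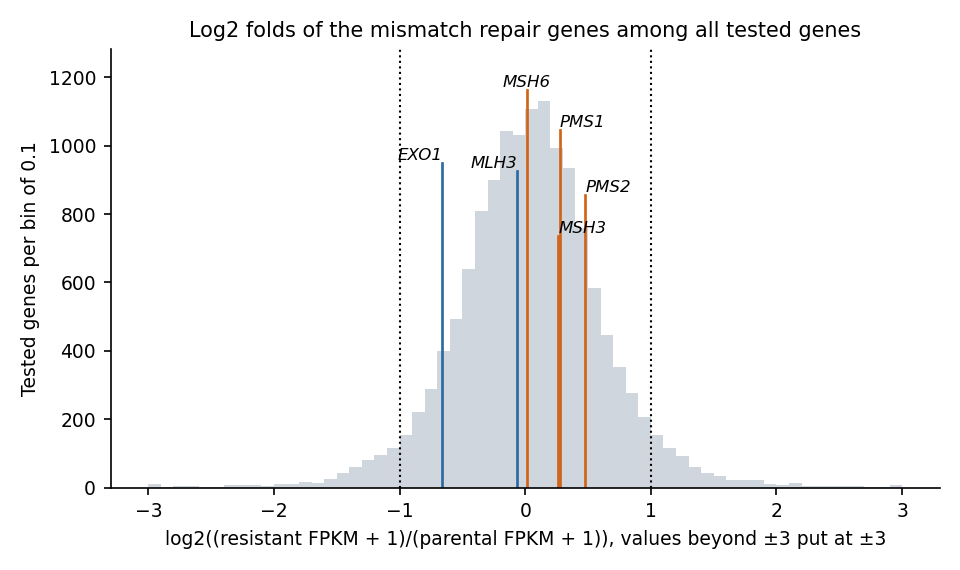
Histogram of the log2 folds of all 13937 tested genes (x axis, resistant over parental with 1 FPKM added; y axis, genes per bin), with a line for each of the 6 members, orange above 0 and blue below. Dotted lines mark the 2-fold threshold, and all 6 members lie between them, from EXO1 at -0.66 to PMS2 at 0.48.

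In the authors' deposited table no member had a q-value under 0.05, where 9.11% of its genes had one. EXO1 had the smallest, with a p-value of 0.0406 and a q-value of 0.207 in the authors' deposited table. A p-value under 0.05 was held by 21.2% of the genes of the authors' deposited table. The q-values in the authors' deposited table were 0.520 for PMS2, 0.613 for PMS1, 0.794 for MSH3, 0.936 for MLH3 and 0.985 for MSH6. The authors' test is not stated, and with 2 libraries it compares those libraries, not the conditions.

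The factors that remove and resynthesise the strand were read next. Of 15 such genes 14 were measured, and none was called, where 8.41% of all tested genes were. Of the 14 folds 9 were below 0 (median log2 fold -0.16, beside 0.04 over all tested genes). PCNA, the sliding clamp that binds MutS and activates MutL, had 66.5 FPKM in the parental line and 33.8 in the resistant clone, a log2 fold of -0.96. With both libraries scaled to the same sum or the same upper quartile, PCNA passed the threshold as lower. POLD1, the catalytic subunit of polymerase delta, had 12.3 and 6.30 FPKM (log2 fold -0.86), and RFC4 of the clamp loader 20.6 and 12.8 (-0.64). These 3 genes, with the largest folds in size, stood with EXO1 on the side of the parental library, while POLD2 of polymerase delta, at 33.2 and 45.9 FPKM (0.46), stood on the other. Least apart were RFC2 at 20.6 and 21.1 FPKM and POLD3 at 9.24 and 9.68. By subunit group, 5 of 6 folds of the clamp and its loader were below 0, as were 2 of 3 of the single-strand binding protein RPA and 1 of 4 of polymerase delta. With the libraries scaled to the same FPKM sum these counts were 6 of 6, 3 of 3 and 3 of 4, and 13 of 14 for the whole list. That scaling lowers every fold: 46.7% of all tested genes were below 0 as deposited and 54.5% under it.

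EXO1 belongs to the RAD2 family of structure-specific nucleases, which also holds ERCC5 of nucleotide excision repair, the flap endonuclease FEN1 and the Holliday junction resolvase GEN1. All 4 folds, that of EXO1 included, were below 0 (median -0.51) and none was called. Of all tested genes 46.7% were below 0 and 8.41% were called. FEN1 is also counted among the G1/S genes below. ERCC5 had 19.5 and 11.0 FPKM (log2 fold -0.77), FEN1 13.2 and 10.02 (-0.36) and GEN1 10.6 and 9.49 (-0.15). EXO1 lay between ERCC5 and FEN1.

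EXO1 is known as a gene of the dividing cell, and it was set beside 23 measured genes of the G1/S transition and DNA replication. None was called, 16 of the 23 folds were below 0 (17 to 18 under the other scalings), and the median log2 fold was -0.35. Of all tested genes 46.7% were below 0, or 54.5% and 52.3% with scaling to the same sum and the same upper quartile, and 8.41% were called. Of these genes, 2 had a lower fold than EXO1: RRM1, the large subunit of ribonucleotide reductase, at 54.7 and 30.9 FPKM (-0.80), and CDC45 of the replicative helicase, at 7.03 and 3.76 (-0.75). CDC6, which loads that helicase, stood on the other side at 9.63 and 16.6 FPKM (0.73), and the helicase subunits MCM7 (32.7 and 32.7) and MCM6 (20.2 and 19.5) were least apart. The part of cell cycle phase in the EXO1 value was not tested.

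**Figure D4:**
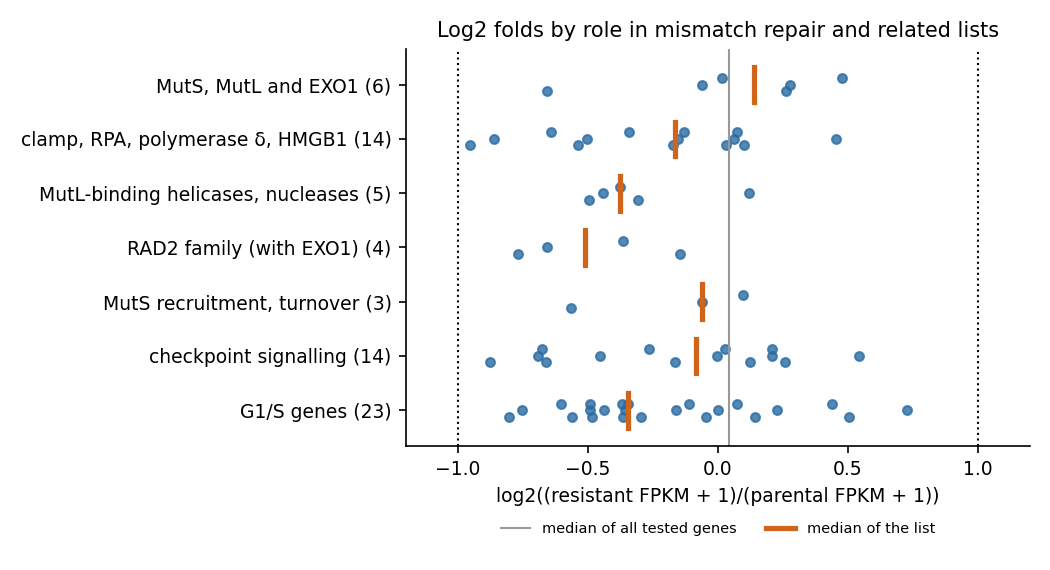
Log2 folds (x axis, resistant over parental with 1 FPKM added) of the single genes (points) of 7 lists, with the number measured in brackets, the list median (orange bar), the median of all tested genes (grey line) and the 2-fold threshold (dotted). No point passes the threshold, and the medians run from -0.51 for the RAD2 family to 0.14 for the MutS, MutL and EXO1 genes.

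Among the helicases and nucleases that bind MutL none of 5 was called, where 8.41% of all tested genes were. Of 5 genes 4 had a fold below 0 (median -0.38), where 46.7% of all tested genes were below 0. The helicase MCM9, which works with the MutS and MutL proteins, had 5.40 and 3.54 FPKM (log2 fold -0.50). The nuclease FAN1 had 11.3 and 8.43 (-0.38), and the helicase WRN had 10.9 and 11.9 (0.12). BLM had 6.79 and 4.74 FPKM and BRIP1 4.31 and 3.29.

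Among genes for the recruitment or turnover of MutS, none of 3 was called, where 8.41% of all tested genes were. SETD2 writes the trimethyl mark on lysine 36 of histone H3 that MSH6 binds, and it had 19.7 FPKM in the parental line and 18.9 in the resistant clone (log2 fold -0.06). The deubiquitinase USP10 had 29.04 and 31.1 FPKM (0.10), and the deacetylase HDAC6 had 17.2 and 11.3 (-0.56). SETD2 was thus as close between the libraries as MLH3, and HDAC6 was lower in the resistant one by less than the threshold.

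Downstream of mismatch repair, TMZ damage activates the ATR and CHEK1 checkpoint. None of 14 checkpoint genes was called, with 6 folds above and 8 below 0 (median -0.08). Under the other scalings 9 were below 0. Of all tested genes 46.7% were below 0 as deposited and 8.41% were called. CLSPN, the adaptor between ATR and CHEK1, had 7.36 and 3.56 FPKM (log2 fold -0.88) and passed the threshold with a pseudocount of 0.1. At that pseudocount 1076 of the 13937 tested genes were called higher and 1029 lower. The kinase ATM had 26.5 and 16.05 FPKM (-0.69) and the ATR activator TOPBP1 25.02 and 15.3 (-0.68). HUS1 (15.6 and 15.6) and CHEK1 (7.27 and 7.42) were least apart. The kinase ATR itself had 15.9 and 13.1 FPKM.

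The genomic surroundings of each member were compared because a clone can differ from its parent over whole segments. For each member the 10 tested genes on each side were taken, overlapping genes included. The 20 neighbours of PMS2, within 1.54 Mb, had a median log2 fold of 0.22, and 16 of the 20 were above 0. Of all tested genes 53.3% were above 0 and 80.9% lay below PMS2. The chromosome 7 median was 0.15, and 13 of the 20 neighbours lay below PMS2. PMS2 was thus the member whose neighbours stood highest, and whether it moved with its segment was not tested.

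The neighbours of EXO1 had a median log2 fold of 0.04, and 2 of the 20 lay below EXO1. Over all tested genes the median was 0.04 and 9.59% lay below EXO1, so both values are near the background. The neighbours of PMS1 had a median of -0.28, with 4 called lower and none higher, and 15 of the 20 lay below PMS1. Of all tested genes 3.82% were called lower, 4.59% were called higher and 68.1% lay below PMS1. The neighbours of MLH3 had a median of -0.38, with 3 called lower and none higher, and 13 of them lay below MLH3. Of all tested genes 42.3% lay below MLH3. Around MSH3 the median was -0.16, with 2 called in each direction, and around MSH6 it was -0.04, with 1 called in each. The medians of the whole chromosome were 0.07 for EXO1, -0.01 for PMS1 and MSH6, 0.08 for MLH3 and 0.09 for MSH3. EXO1 and PMS1 were thus the members furthest from the middle of their neighbours, in opposite directions.

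**Figure D5:**
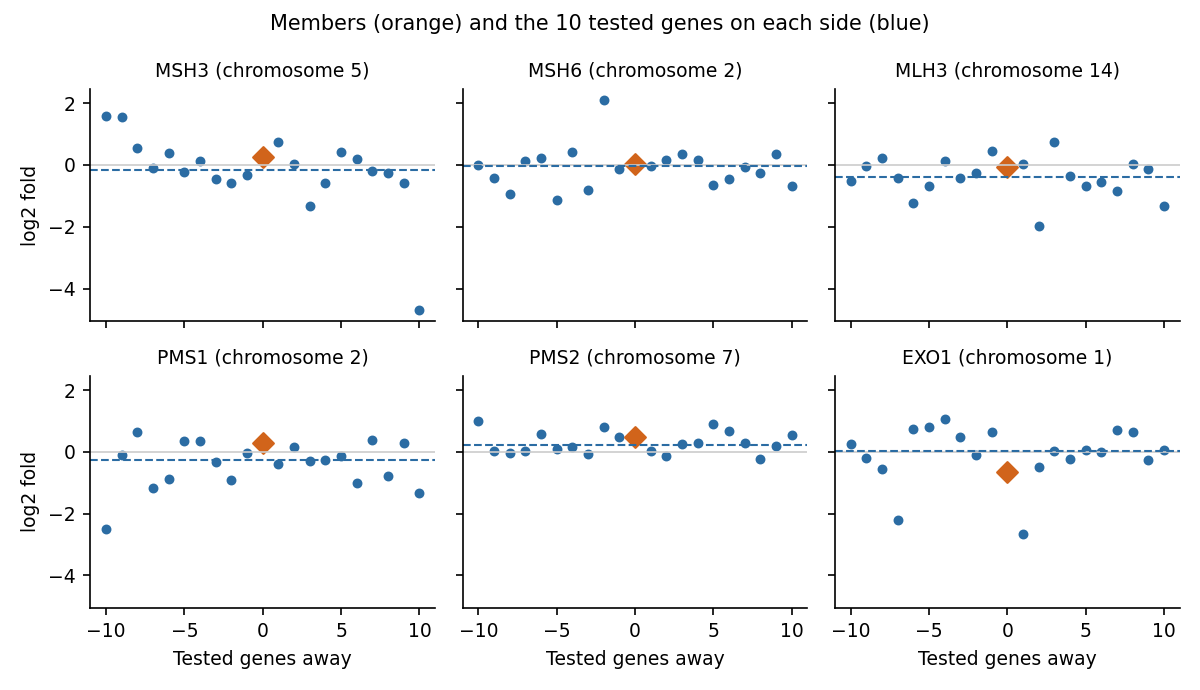
Log2 folds (y axis, resistant over parental with 1 FPKM added) of each member (orange diamond) and of the 10 tested genes on each side of it by position (blue points; x axis, number of genes away). The dashed line is the median of the 20 neighbours, 0.22 around PMS2 and -0.38 around MLH3.

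Likeness to other genes was measured as the distance between log2(FPKM + 1) values over the 2 libraries, among the 65 measured genes of the lists that are not members. The checkpoint clamp gene RAD1 (12.8 and 15.5 FPKM) was nearest to PMS1, at a distance of 0.04. WRN was nearest to MSH3 (0.17), HUS1 to MSH6 (0.20), and GINS2 (8.91 and 5.52 FPKM), a subunit of the replicative helicase, to EXO1 (0.20). GINS1 of the same helicase (5.52 and 6.63) was nearest to MLH3 (0.20), and UHRF1 (20.0 and 22.2), which maintains DNA methylation, to PMS2 (0.25). With 2 libraries such a distance describes a pair of levels and no pattern of regulation.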

How the data were processed

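The deposited table gives FPKM for 1 parental and 1 resistant library, per the file headers. It also holds p-values and q-values of the authors' comparison, per the file headers. Not given in the sources used here were the aligner, annotation, genome build, FPKM scaling, strand use and the authors' test. Sequencing depth is unknown, so no counting interval is given.

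Folds are log2 of FPKM ratios with a pseudocount of 1, which understates the change of low genes, over genes with 1 FPKM or more in either library. No statistical test was run, as each group had 1 library. Members and gene lists were chosen with earlier results of these data known. All members were named, small lists mostly in full, and of lists over 5 genes the 3 with the largest and 2 with the smallest folds in size. ATR and POLD2 were added to these after their values were seen. One gene of the lists and the sequence near it are not reported here. For a symbol on several rows, the row whose identifier carries it in the supplied names was used. Coordinates, exons and 50-base words came from GENCODE release 29 (GRCh38), which held 15531 of the 15603 identifiers. Promoter windows came from RefSeq, GRCh38.p14, and all 6 members matched. Python 3.11.15, numpy 2.4.6 and pandas 2.3.3 were used. There were 9 alternative settings of pseudocount, scaling, filter and threshold.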

Additional observations from a re-analysis of the deposited data

How the results depend on the processing

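No paired analysis was possible because each group held 1 library. All 9 alternatives were planned. A log2 value is counted here as moved when it changed by over 0.1 or crossed the threshold, and a count when it changed by over 1.5 times. Of 198 alternative values 25 moved. With both libraries scaled to the same FPKM sum the median log2 fold of all tested genes went from 0.04 to -0.06, and the folds were 0.16 for MSH3, -0.092 for MSH6, 0.17 for PMS1 and 0.37 for PMS2. The medians were then 0.034 for the members, -0.27 for the strand removal and resynthesis factors, -0.61 for the RAD2 family, -0.48 for the MutL-binding genes, -0.19 for the checkpoint and -0.45 for the G1/S genes. MSH6 was the only member whose sign changed under any of the 9 settings. EXO1 ran from -0.76 to -0.66 and PMS2 from 0.37 to 0.50. Calling at 1.5-fold gave 2020 genes higher and 1674 lower, 26.5% of all tested genes. It called 1 of 6 members (EXO1, still -0.66) and 3 of 14 strand removal factors. In the RAD2 family 2 of 4 were called, ERCC5 and again EXO1. Of the 14 checkpoint genes and of the 23 G1/S genes, 4 each were called. A pseudocount of 0.1 gave 1076 genes higher and 1029 lower of the 13937 tested, and 1 of 14 checkpoint genes called. A filter of 5 FPKM gave 282 genes lower and a checkpoint median of -0.26. Scaling to the same sum or upper quartile called 1 of 14 strand removal factors, PCNA, where 659 and 619 of all tested genes were called lower. Depth is unknown and limits every value by an amount that cannot be given; the members had 5.95 FPKM or more.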
